A study of Homo sapiens with 33 samples.

Results

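The genes studied here are the 8 ligands of the epidermal growth factor receptor (EGFR) family that were looked for in the count table, AREG, EREG, TGFA, HBEGF, BTC, EPGN, EGF and NRG1. They were taken from the table by symbol, and all 8 were found among the 56470 gene symbols. Bulk RNA-seq had been performed on 3 head and neck squamous cell carcinoma (HNSCC) cell lines, SCC1, SCC6 and SCC25. Cells of each line received cetuximab, an antibody that binds EGFR and blocks ligand binding, at 100 nM, or PBS as the untreated control. Treatment began after a day in culture, and the medium with cetuximab or PBS was replaced daily. In each line 1 PBS library was made on each of days 0 to 5, and 5 cetuximab libraries were made up to day 5, which gave 33 libraries. In SCC1 and SCC25 these cover days 1 to 5, while in SCC6 no library is labelled day 1 and 2 are labelled day 2. Those 2 libraries are called the first and the second day 2 library. Comparisons between treatments used days 1 to 5, with n = 5 libraries per line and treatment. Each is a different day, except for the 2 SCC6 libraries labelled day 2, and nothing says that they came from separate cultures. The p-values, standard errors and SDs therefore measure only the spread between these libraries. That spread mixes change over the days with variation that may be technical. The labels name no genetic change in any group, and each line stands for a single tumour.

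The ligands of this family are made as precursors anchored in the cell membrane and are released when proteases such as ADAM17 and ADAM10 cut them. AREG, EGF, TGFA and EPGN bind EGFR, while HBEGF, BTC and EREG bind EGFR and ERBB4, and NRG1 binds ERBB3 and ERBB4. Receptor dimers then switch on kinase cascades that include the ERK pathway, and in squamous epithelium AREG, HBEGF and TGFA are known for sustaining keratinocyte growth in an autocrine loop. Several ligand genes are themselves transcribed in response to ERK activity.

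EPGN, EREG, AREG and BTC lie together on the long arm of chromosome 4. In the GRCh37 annotation (GENCODE) they occupy chr4:75174187-75182506, chr4:75230862-75254466, chr4:75310853-75320722 and chr4:75669969-75719733, with BTC on the minus strand and the others on the plus strand. From the start of EPGN to the end of BTC the cluster spans 545.5 kb. EGF is further along the same chromosome at chr4:110834039-110934922 on the plus strand. HBEGF (chr5:139712428-139726188) and TGFA (chr2:70674416-70781325) lie elsewhere, both on the minus strand. The annotation also holds AREGB, a near-identical copy of AREG whose transcript shares 1233 of 1234 aligned bases with it. AREGB is not a row of the count table, so how reads common to both copies were assigned is uncertain, and AREG values may include them.

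The promoters of AREG, EREG, TGFA and HBEGF, which had lower transcript levels with cetuximab in every line, and of EGF, which had higher levels, are shown so that the start regions of genes that moved together can be compared. Each runs from 250 bases before to 50 bases after a RefSeq transcription start on GRCh38.p14, a different build from that of the counts, and 7 of the 8 genes, all but NRG1, were searched. Capitals mark matches, on either strand, to a cyclic AMP response element (CRE, TGACGTCA), to an AP-1 site (TGANTCA) or to a TFAP2 site (GCCNNNGGC). A CArG box was searched as well. None of the 3 motifs with letters overlaps another in these windows.
AREG, chr4:74444886-74445185, plus strand: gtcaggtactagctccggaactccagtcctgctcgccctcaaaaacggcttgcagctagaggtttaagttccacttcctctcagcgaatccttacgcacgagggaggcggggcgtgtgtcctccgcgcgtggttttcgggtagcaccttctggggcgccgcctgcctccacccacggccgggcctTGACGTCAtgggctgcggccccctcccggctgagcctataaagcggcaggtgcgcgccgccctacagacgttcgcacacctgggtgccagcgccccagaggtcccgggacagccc
EREG, chr4:74364895-74365194, plus strand: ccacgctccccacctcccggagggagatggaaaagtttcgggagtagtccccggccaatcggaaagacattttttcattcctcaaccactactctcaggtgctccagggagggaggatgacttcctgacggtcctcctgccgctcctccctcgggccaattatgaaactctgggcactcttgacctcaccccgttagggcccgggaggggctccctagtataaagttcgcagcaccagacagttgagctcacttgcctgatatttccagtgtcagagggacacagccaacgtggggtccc
TGFA, chr2:70553777-70554076, minus strand: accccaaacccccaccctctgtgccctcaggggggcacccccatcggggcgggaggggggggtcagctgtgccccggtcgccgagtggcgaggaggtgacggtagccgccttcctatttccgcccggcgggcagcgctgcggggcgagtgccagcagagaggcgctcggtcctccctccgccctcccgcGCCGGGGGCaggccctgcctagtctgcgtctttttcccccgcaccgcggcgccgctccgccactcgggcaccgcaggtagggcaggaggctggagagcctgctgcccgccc
HBEGF, chr5:140346554-140346853, minus strand: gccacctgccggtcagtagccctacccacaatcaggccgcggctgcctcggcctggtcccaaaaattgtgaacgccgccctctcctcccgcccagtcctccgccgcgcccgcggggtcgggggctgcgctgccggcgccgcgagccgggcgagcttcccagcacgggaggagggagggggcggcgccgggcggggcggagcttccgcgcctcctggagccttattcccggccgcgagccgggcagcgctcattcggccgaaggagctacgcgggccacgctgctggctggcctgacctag
EGF, chr4:109912633-109912932, plus strand: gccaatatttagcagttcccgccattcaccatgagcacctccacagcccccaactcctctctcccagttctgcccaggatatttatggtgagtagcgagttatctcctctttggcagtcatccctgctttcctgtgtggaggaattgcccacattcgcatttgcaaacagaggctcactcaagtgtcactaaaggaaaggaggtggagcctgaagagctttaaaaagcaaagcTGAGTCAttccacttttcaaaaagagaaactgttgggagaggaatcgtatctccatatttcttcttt

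The AREG window holds the CRE 65 bases before the start, and 1.85% of all 35116 RefSeq promoters of this length hold that motif. The TGFA window shown, the first of 2 for this gene, holds a TFAP2 match 61 bases before the start, a motif found in 23.2% of promoters. The EGF window holds an AP-1 match 17 bases before the start, as do 7.71% of promoters. The EREG, HBEGF, BTC and EPGN windows hold none of the motifs searched, and 1.29% of all promoters hold the CArG box. The genes that fell in every line therefore do not share any of these motifs within this window, which says only that the letters are not there.

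Total counts ranged from 28508758 to 80727478 per library. All 8 squamous epithelial markers looked for, among them KRT5, KRT14 and TP63, averaged at least 1 CPM (counts scaled to library size, with TMM factors) in every line and treatment. Their summed level was higher with cetuximab in SCC1, at 1898 to 3142 CPM with PBS and 6844 to 11604 CPM with cetuximab. In SCC6 it was 1436 to 2990 CPM and 1930 to 2823 CPM, and in SCC25 12399 to 18642 CPM and 14408 to 17876 CPM. Of these 8 markers, 6 were called higher and 1 lower in SCC1, 3 higher and 2 lower in SCC6, and 2 higher and 1 lower in SCC25. Of all genes, 22.7%, 15.6% and 8.8% were called higher and 22.1%, 14.6% and 9.5% lower in SCC1, SCC6 and SCC25. The summed level of 8 fibroblast markers was higher with cetuximab, from 21.2 to 32.9 CPM with PBS against 49.97 to 146 CPM in SCC1, from 2.93 to 5.03 CPM against 8.96 to 115 CPM in SCC6, and from 150 to 199 CPM against 255 to 407 CPM in SCC25. Single markers did not all follow that sum. All 4 tested were called higher in SCC1 and both of the 2 tested in SCC6. In SCC25, 4 of 8 were called higher and 1 lower. Over the 3 lines 6 were called higher and 2 lower. The part of both sums in the results was not tested. The 6 leukocyte markers looked for summed to at most 7.38 CPM and 4 endothelial markers to at most 18.5 CPM. Treatments were also unevenly placed on sequencing flow cells, which are read from the library titles. In SCC1, of the PBS libraries after day 0, just that of day 5 shared a flow cell with treated libraries.

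Per length of canonical transcript, untreated cells made mostly AREG, TGFA, HBEGF and, in SCC6, EREG. With PBS, SCC6 had the highest and SCC25 the lowest summed level of ligand transcripts, and AREG ranked first in all 3 lines. These levels were compared between genes as CPM per kb of each gene's canonical transcript. The transcripts that the cells express were not examined, and the ranks and shares depend on these lengths. In plain CPM, NRG1 ranked first in SCC25 with PBS, at 135 to 162 CPM against 64.1 to 91.2 CPM for AREG. EREG did so in SCC6, at 479 to 976 CPM against 368 to 523 CPM for AREG. Summed over the 8 ligands, the level was 769 ± 79.3 CPM per kb in SCC6, 336 ± 62.9 CPM per kb in SCC1 and 135 ± 14.7 CPM per kb in SCC25 (SD, n = 5). AREG made up 67.8% ± 0.99 of this sum in SCC1, 45.7% ± 2.62 in SCC6 and 47.7% ± 1.47 in SCC25. TGFA came second in SCC1 with 60.4 ± 7.64 CPM per kb, and HBEGF came second in SCC6 and SCC25 with 167 ± 15.1 and 30.3 ± 4.64 CPM per kb. In SCC6, HBEGF and EREG (159 ± 38.2 CPM per kb) lay within each other's spread. NRG1 followed TGFA in SCC25 at 12.4 ± 0.95 CPM per kb. At the other end, EGF was last in SCC1 and SCC6 and BTC was last in SCC25.

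Between the untreated lines the same gene could differ by many fold. EREG was 4.59 higher on the log2 scale in SCC6 than in SCC1 (SE 0.21, adjusted p = 2.9e-12) and 5.23 lower in SCC25 than in SCC6 (log2 fold change -5.23, SE 0.21, adjusted p = 7.1e-13), where adjusted p-values here and elsewhere come from the quasi-likelihood test of edgeR and were adjusted by the Benjamini-Hochberg method over all genes tested. Its PBS libraries lay between 479 and 976 CPM in SCC6, above every SCC1 library (22.2 to 39.5 CPM) and every SCC25 library (16.8 to 24.1 CPM). EGF showed the opposite placement, with 4.67 to 5.55 CPM in SCC25 against at most 0.279 CPM in SCC1 and at most 0.578 CPM in SCC6. It was 4.64 higher on the log2 scale in SCC25 than in SCC1 (SE 0.37, adjusted p = 4.7e-09) and 4.72 higher than in SCC6 (SE 0.39, adjusted p = 7.6e-09). NRG1 was likewise highest in SCC25, by 2.46 on the log2 scale over SCC1 (SE 0.19, adjusted p = 3.0e-09) and by 3.30 over SCC6 (SE 0.20, adjusted p = 9.8e-11). HBEGF was higher in SCC6 than in SCC1 by 2.34 (SE 0.22, adjusted p = 5.1e-08) and did not pass the test between SCC25 and SCC1 (log2 fold change -0.15, SE 0.21, adjusted p = 0.55), except without the day 1 PBS library of SCC1 (-0.34, adjusted p = 0.036). EGF did not pass between SCC6 and SCC1 (-0.07, SE 0.50, adjusted p = 0.91), except without the day 5 PBS library of SCC6 (-1.01, adjusted p = 0.037). This EGF value was unstable, at -3.06 to 0.21 over the 20 alternatives. Of the 8 ligands, 6 differed between SCC6 and SCC1, 7 between SCC25 and SCC1 and 7 between SCC25 and SCC6. The background for these counts is high, since 69.1%, 68.4% and 72.1% of all genes tested differed in the same comparisons. Flow cell moved with line as well. The SCC25 PBS libraries shared no flow cell with PBS libraries of the other lines, so line and flow cell cannot be told apart for SCC25. SCC1 and SCC6 shared one through the day 5 library of SCC1 and the day 1 library of SCC6, and with flow cell as a covariate, an alternative added after the data were seen, 5 of the 8 ligands differed between them. Of all genes, 9817 of the 23015 tested differed in that fit. EREG and HBEGF were still called, at 3.65 (adjusted p = 4.0e-07) and 2.48 (adjusted p = 8.3e-04). AREG and TGFA, which had been higher in SCC6 by 0.66 and 0.55 (adjusted p = 2.4e-04 and 1.9e-03), were not, at 0.41 and 0.50 (adjusted p = 0.28 and 0.22), while BTC came to be called, at -1.501 (adjusted p = 5.1e-04) in place of -0.26 (adjusted p = 0.26). EPGN was at -2.88 in place of -1.62 and was called in both fits.

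To follow the ligands under EGFR blockade, cetuximab-treated and PBS libraries were compared within each line. AREG, EREG, TGFA and HBEGF fell in all 3 lines, with every cetuximab-treated library below every PBS library of days 1 to 5. The share of all genes separated in this way was not computed. EGF rose in all 3 lines, NRG1 rose in SCC1 and fell in SCC25, and BTC and EPGN fell in SCC6. In bulk RNA, fewer cells expressing a gene and less RNA per cell cannot be told apart. In all, 6 of 8 ligands changed in SCC1, where 44.8% of the 17984 genes tested did (22.7% higher and 22.1% lower), 7 of 8 in SCC6, where 30.1% of 17387 did (15.6% higher and 14.6% lower), and 6 of 8 in SCC25, where 18.3% of 19101 did (8.8% higher and 9.5% lower).

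**Figure D1:**
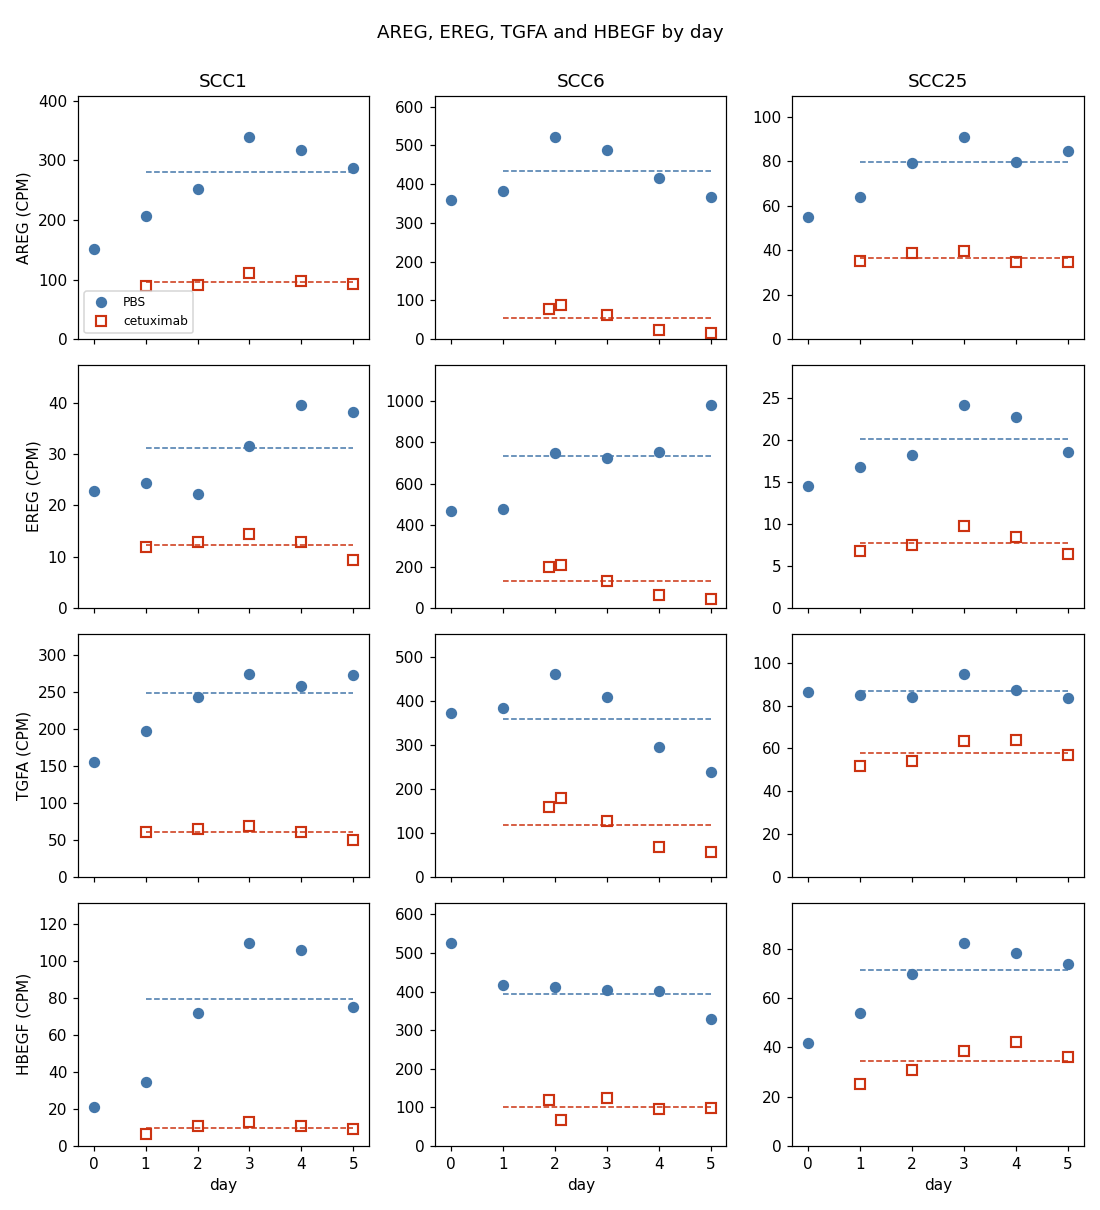
Level of AREG, EREG, TGFA and HBEGF (rows, CPM on a linear axis from 0) on each day in SCC1, SCC6 and SCC25 (columns). Each point is a library, blue circles are PBS and open red squares are cetuximab, dashed lines are means over days 1 to 5, and the 2 SCC6 libraries labelled day 2 are drawn side by side. In all 12 panels the cetuximab squares lie below the PBS circles of days 1 to 5.

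AREG, amphiregulin, is a low-affinity EGFR ligand. In SCC1 it was at 207, 253, 340, 317 and 287 CPM with PBS on days 1 to 5 and at 88.8, 90.6, 110, 98.1 and 92.5 CPM with cetuximab. In SCC6 it was at 382, 523, 487, 415 and 368 CPM with PBS, and at 77.3 and 88.4 CPM in the first and second day 2 libraries, then 62.2, 23.7 and 15.2 CPM on days 3, 4 and 5 with cetuximab, an order kept for SCC6 throughout. In SCC25 the PBS libraries gave 64.1, 79.5, 91.2, 79.6 and 84.6 CPM and the cetuximab libraries 35.2, 38.6, 39.5, 34.8 and 34.6 CPM. The treatments did not overlap in any line, and the lowest levels were those of SCC6 on days 4 and 5. AREG fell in each line, with log2 fold changes of -1.53 in SCC1 (SE 0.11, adjusted p = 1.3e-06), -3.06 in SCC6 (SE 0.43, adjusted p = 3.5e-04) and -1.12 in SCC25 (SE 0.09, adjusted p = 2.7e-05). The PBS mean was thus 2.92, 8.15 and 2.18 times the cetuximab mean in SCC1, SCC6 and SCC25.

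EREG, epiregulin, is encoded beside AREG and activates EGFR and ERBB4. SCC1 gave 24.3, 22.2, 31.5, 39.5 and 38.1 CPM with PBS on days 1 to 5 and 11.9, 12.9, 14.4, 12.97 and 9.45 CPM with cetuximab. SCC6 gave 479, 746, 722, 750 and 976 CPM with PBS, and 200 and 209 CPM in the day 2 libraries, then 130, 65.1 and 44.3 CPM with cetuximab. SCC25 gave 16.8, 18.2, 24.1, 22.7 and 18.6 CPM with PBS and 6.83, 7.48, 9.74, 8.46 and 6.38 CPM with cetuximab. Again the treatments did not overlap, and in SCC6 the PBS library of day 5 was the highest while the cetuximab library of that day was the lowest. EREG fell in each line, with log2 fold changes of -1.32 in SCC1 (SE 0.16, adjusted p = 3.9e-05), -2.53 in SCC6 (SE 0.40, adjusted p = 7.6e-04) and -1.36 in SCC25 (SE 0.13, adjusted p = 1.0e-04). Its estimated counts were whole numbers in 0 of 33 libraries, within 0.01 of a count, against 33 of 33 for BTC, EPGN and EGF.

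TGFA, transforming growth factor alpha, is a high-affinity EGFR ligand. With PBS on days 1 to 5, SCC1 was at 197, 244, 273, 258 and 272 CPM, and with cetuximab at 60.4, 64.1, 68.3, 60.9 and 49.5 CPM. SCC6 was at 385, 460, 410, 295 and 239 CPM with PBS, and at 159 and 179 CPM in the day 2 libraries, then 126, 68.5 and 57.7 CPM with cetuximab. SCC25 was at 84.8, 83.9, 94.5, 87.1 and 83.7 CPM with PBS and at 51.8, 54.0, 63.2, 64.0 and 56.9 CPM with cetuximab. The smallest gap was in SCC25, where the highest treated library was at 64.0 CPM and the lowest PBS library at 83.7 CPM. TGFA fell in each line, with log2 fold changes of -2.02 in SCC1 (SE 0.10, adjusted p = 2.0e-07), -1.63 in SCC6 (SE 0.31, adjusted p = 2.5e-03) and -0.57 in SCC25 (SE 0.07, adjusted p = 2.9e-04).

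HBEGF, heparin-binding EGF-like growth factor, is a ligand of EGFR and ERBB4. In SCC1 the PBS libraries of days 1 to 5 were at 34.6, 72.0, 109, 106 and 74.9 CPM and the cetuximab libraries at 6.21, 10.6, 12.8, 10.8 and 8.97 CPM. In SCC6 they were at 417, 412, 404, 400 and 330 CPM, against 119 and 67.3 CPM in the day 2 libraries and 124, 94.5 and 97.3 CPM on days 3, 4 and 5 with cetuximab. In SCC25 they were at 53.9, 69.5, 82.2, 78.4 and 73.7 CPM, against 25.1, 30.8, 38.6, 42.1 and 36.1 CPM with cetuximab. The treatments were separate in each line, and the pair of libraries labelled day 2 in SCC6 differed more for HBEGF than for AREG, EREG or TGFA. HBEGF fell in each line, with log2 fold changes of -2.98 in SCC1 (SE 0.28, adjusted p = 5.9e-06), -2.00 in SCC6 (SE 0.15, adjusted p = 9.1e-06) and -1.04 in SCC25 (SE 0.14, adjusted p = 6.2e-04). This corresponds to PBS means 8.03, 3.92 and 2.07 times the cetuximab means.

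Since treatment and flow cell overlapped, the means were also compared on the flow cells that held both treatments. In SCC1 the only such control is the day 5 PBS library, which was 2.99 times the mean of the 5 cetuximab libraries for AREG, 3.09 times for EREG, 4.49 times for TGFA and 7.59 times for HBEGF. In SCC6, 4 PBS and 3 cetuximab libraries shared a flow cell, and the PBS mean was 5.90, 4.45, 2.27 and 3.75 times the cetuximab mean for the same genes. In SCC25, 5 PBS and 2 cetuximab libraries did so, with 2.16, 2.80, 1.64 and 2.56 times. None of these 12 comparisons had overlapping treatments, but the share of all genes for which this holds was not computed. Other ligands were also separate with so few libraries. They were BTC, EGF and NRG1 in SCC1, BTC and EPGN in SCC6, and EGF and NRG1 in SCC25. BTC in SCC1 was there at 0.83 times the PBS library.

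**Figure D2:**
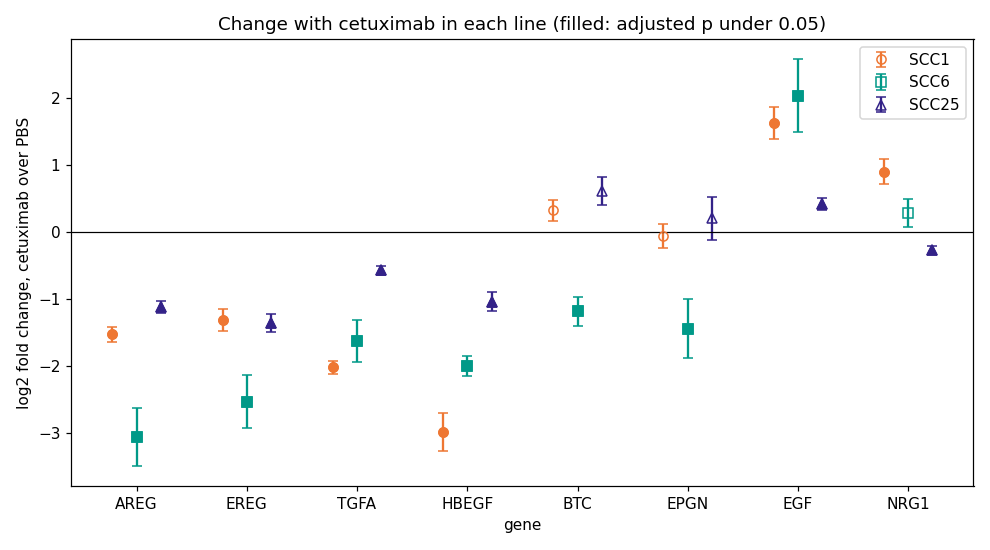
Log2 fold change of cetuximab over PBS (vertical axis, linear, 0 marked) for each ligand in SCC1, SCC6 and SCC25, with the standard error of the fit as bars and n = 5 libraries per treatment. Filled symbols passed an adjusted p of 0.05. AREG, EREG, TGFA and HBEGF lie below 0 and EGF above 0 in all 3 lines, while BTC, EPGN and NRG1 differ in direction.

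EGF was the ligand that rose in every line, from low levels. SCC1 was at 0.178, 0.135, 0.233, 0.159 and 0.279 CPM with PBS on days 1 to 5 and at 0.498, 0.558, 0.552, 0.780 and 0.651 CPM with cetuximab. SCC6 was at 0.0309, 0.0342, 0.115, 0.186 and 0.578 CPM with PBS, from 1 to 16 counts a library, and at 0.838, 0.469, 0.888, 0.630 and 1.04 CPM with cetuximab, from 15 to 73 counts. SCC25 was at 4.71, 4.67, 5.04, 5.17 and 5.55 CPM with PBS and at 5.91, 6.23, 7.29, 7.20 and 6.85 CPM with cetuximab. The treatments were separate in SCC1 and SCC25, while in SCC6 the day 5 PBS library lay above the second day 2 library. EGF rose by 1.62 in SCC1 (SE 0.24, adjusted p = 1.6e-04), by 2.03 in SCC6 (SE 0.54, adjusted p = 0.015) and by 0.42 in SCC25 (SE 0.09, adjusted p = 8.4e-03). With flow cell as a covariate the call was lost in each line, at 1.12 in SCC1 (adjusted p = 0.075), 1.68 in SCC6 (adjusted p = 0.0504) and 0.29 in SCC25 (adjusted p = 0.13).

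NRG1, neuregulin 1, binds ERBB3 and ERBB4 rather than EGFR. In SCC1 it was at 39.1, 25.9, 21.7, 18.9 and 28.8 CPM with PBS and at 58.0, 58.7, 50.4, 42.9 and 37.8 CPM with cetuximab. In SCC6 it was at 11.6, 12.0, 12.6, 16.4 and 21.1 CPM with PBS and at 23.4, 15.1, 23.6, 16.0 and 13.1 CPM with cetuximab. In SCC25 it was at 138, 135, 153, 162 and 154 CPM with PBS and at 118, 113, 130, 128 and 121 CPM with cetuximab. Only in SCC25 were the treatments separate, and there the treated libraries were lower. NRG1 rose by 0.90 in SCC1 (SE 0.19, adjusted p = 1.7e-03), fell by 0.27 in SCC25 (SE 0.06, adjusted p = 0.012) and had a log2 fold change of 0.28 in SCC6 (SE 0.21, adjusted p = 0.35). The SCC6 value spans a log2 fold change of 0.73 on days 1 to 3 and of -0.38 on days 4 and 5. With flow cell as a covariate the SCC1 value was 0.79 (adjusted p = 0.13).

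BTC, betacellulin, and EPGN, epigen, were the other members of low level. BTC was at 4.598, 4.23, 4.91, 5.27 and 8.03 CPM with PBS in SCC1 on days 1 to 5 and at 5.96, 6.16, 7.40, 7.41 and 6.46 CPM with cetuximab. In SCC6 it was at 2.84, 4.62, 4.74, 5.14 and 4.88 CPM with PBS and at 2.09, 2.78, 1.98, 1.47 and 1.67 CPM with cetuximab. In SCC25 it was at 0.600, 0.606, 0.812, 0.881 and 1.03 CPM with PBS and at 1.28, 0.872, 1.06, 1.16 and 1.59 CPM with cetuximab. The treatments were separate in SCC6 alone, where BTC fell by 1.19 (SE 0.22, adjusted p = 1.8e-03). Its log2 fold change was 0.32 in SCC1 (SE 0.16, adjusted p = 0.12). There the flow cell covariate turned it to -0.26, and leaving out the day 5 PBS library gave 0.50 (adjusted p = 2.3e-03). In SCC25 it was 0.61 (SE 0.21, adjusted p = 0.057), and 6 of 17 alternatives passed the test. Among them were the day as a block (adjusted p = 0.022) and the fits without the day 5 PBS or the day 2 cetuximab library (adjusted p = 0.031 and 0.033).

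EPGN was at 7.22, 10.5, 8.95, 7.68 and 8.87 CPM with PBS in SCC1 and at 4.51, 8.55, 8.96, 8.97 and 9.86 CPM with cetuximab. In SCC6 it was at 1.20, 1.78, 3.18, 3.65 and 4.05 CPM with PBS and at 1.60, 1.69, 1.04, 0.576 and 0.401 CPM with cetuximab. In SCC25 it was at 2.81, 2.86, 3.01, 4.85 and 7.77 CPM with PBS and at 2.82, 3.34, 5.39, 5.41 and 7.45 CPM with cetuximab. The treatments overlapped in all 3 lines, and in SCC6 the gap was widest on days 4 and 5. EPGN fell by 1.44 in SCC6 (SE 0.44, adjusted p = 0.026), a call that was lost with the day as a block (adjusted p = 0.092 and 0.103, with the first or the second day 2 library taken as day 1) and without any of 6 of the 10 libraries (PBS of days 3, 4 and 5 and cetuximab of days 3, 4 and 5, adjusted p from 0.051 to 0.065). Its log2 fold changes of -0.07 in SCC1 (SE 0.18, adjusted p = 0.80) and 0.20 in SCC25 (SE 0.32, adjusted p = 0.71) did not pass the test.

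**Figure D3:**
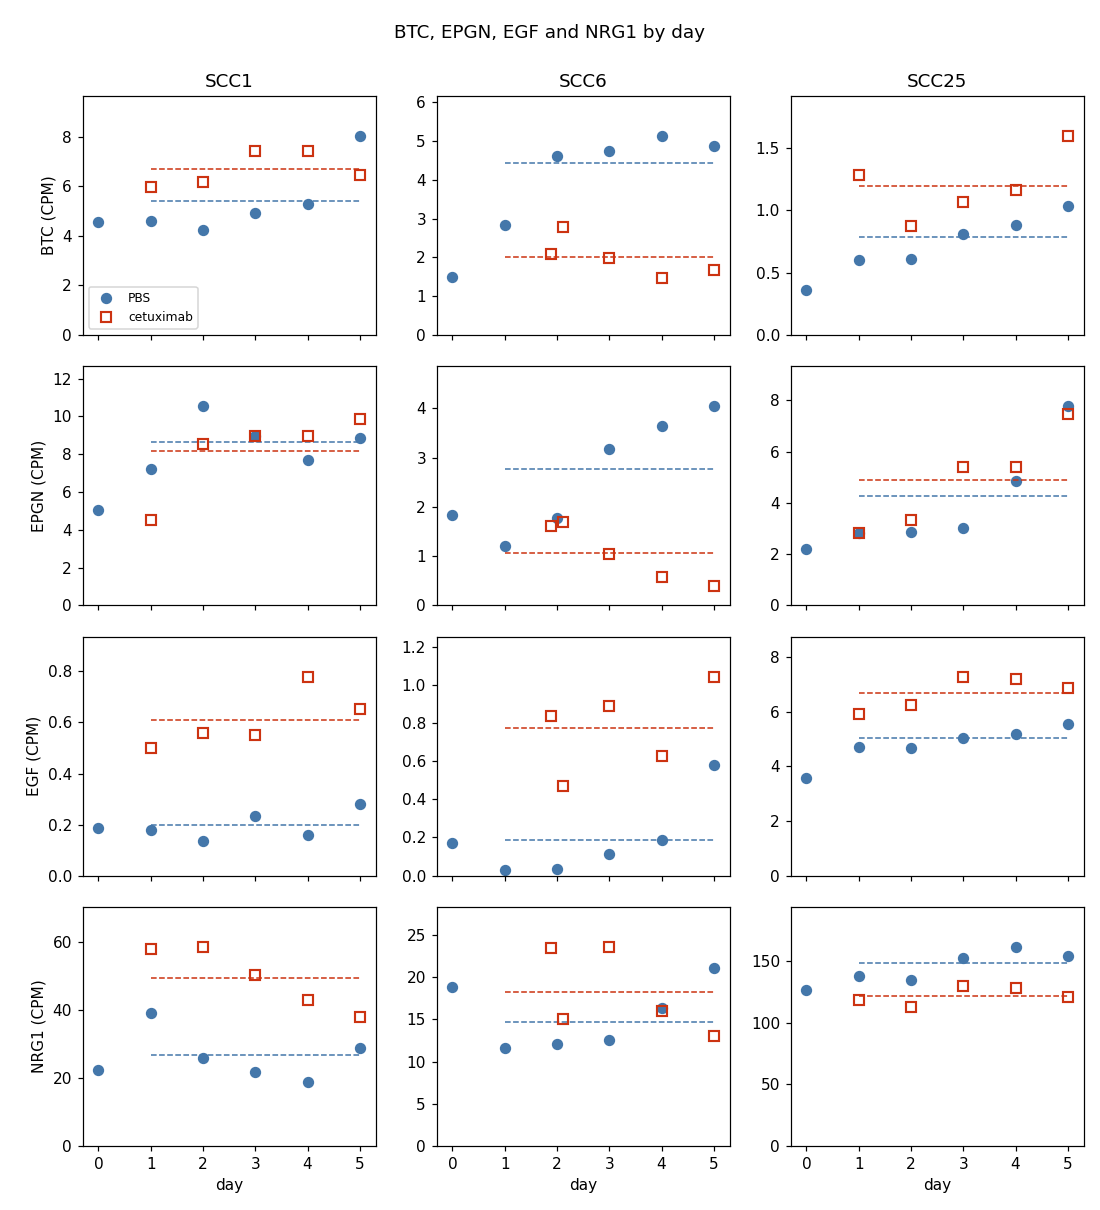
Level of BTC, EPGN, EGF and NRG1 (rows, CPM on a linear axis from 0) on each day in SCC1, SCC6 and SCC25 (columns), drawn as for the 4 genes above, with blue circles for PBS, open red squares for cetuximab and dashed lines for means over days 1 to 5. EGF is higher with cetuximab in SCC1 and SCC25 without overlap, and BTC lower in SCC6, while EPGN overlaps in every line.

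Over the 3 lines together, with line as a term in the fit, 5 of 8 ligands changed, against 42.7% of the 20399 genes tested (22.9% higher and 19.8% lower). The fall was to a log2 fold change of -1.88 for AREG (SE 0.23, adjusted p = 1.6e-07), -1.74 for EREG (SE 0.19, adjusted p = 5.6e-08), -1.41 for TGFA (SE 0.17, adjusted p = 1.4e-07) and -1.99 for HBEGF (SE 0.20, adjusted p = 8.8e-09). EGF rose by 1.14 (SE 0.22, adjusted p = 1.0e-04). BTC, EPGN and NRG1 did not pass the test, with log2 fold changes of -0.10, -0.37 and 0.30 (adjusted p = 0.71, 0.22 and 0.070). NRG1 passed it in 3 of 38 alternatives. Among them were the fits without the day 2 cetuximab library of SCC25 or the day 5 PBS library of SCC6 (adjusted p = 0.048 and 0.034). EPGN passed it with flow cell as a covariate (-0.64, adjusted p = 0.031).

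The size of the change differed between lines for all 8 ligands, by an F test of the treatment-by-line term that called 26.1% of the 21414 genes tested. For AREG the log2 fold change was further below 0 in SCC6 than in SCC1 (difference -1.504, SE 0.38, adjusted p = 4.8e-03) and than in SCC25 (difference -1.93, SE 0.38, adjusted p = 6.3e-04). HBEGF and TGFA had their lowest fold change in SCC1, and the fold changes were less negative in SCC25 by 1.96 (SE 0.31, adjusted p = 5.6e-05) and 1.46 (SE 0.29, adjusted p = 1.2e-03). Between SCC6 and SCC1, HBEGF differed (1.01, SE 0.30, adjusted p = 0.017) and TGFA did not pass the test (0.42, SE 0.29, adjusted p = 0.35). EREG did not differ past the test between SCC25 and SCC1 (difference -0.03, SE 0.40, adjusted p = 0.99), and its overall call was lost without the day 5 PBS or the day 4 cetuximab library of SCC6 (adjusted p = 0.065 and 0.064). The log2 fold change of BTC was lower in SCC6 than in SCC1 by a difference of -1.49 (SE 0.27, adjusted p = 1.6e-04). That of NRG1 differed between SCC25 and SCC1 by -1.16 (SE 0.25, adjusted p = 2.4e-03). With flow cell in the fit 4 of the 8 were called, beside 2979 of 24399 genes. EREG, EPGN, EGF and NRG1 were not (adjusted p = 0.25, 0.43, 0.087 and 0.06). With the day as a block and the second day 2 library of SCC6 taken as day 1, EPGN was not called either (adjusted p = 0.051), nor was it without any of 6 libraries, cetuximab of day 5 in SCC25, PBS of days 3, 4 and 5 in SCC6 and cetuximab of days 4 and 5 in SCC6 (adjusted p from 0.054 to 0.083).

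Per length of transcript, the summed ligand level with cetuximab was 109 ± 9.7 CPM per kb in SCC1, 145 ± 56.1 CPM per kb in SCC6 and 73.5 ± 5.73 CPM per kb in SCC25 (SD, n = 5). The highest treated library stayed below the lowest PBS library in each line, at 125 against 243 CPM per kb in SCC1, 198 against 686 CPM per kb in SCC6 and 80.2 against 113 CPM per kb in SCC25. AREG still ranked first in SCC1 and SCC25, with 71.3% ± 1.64 and 40.4% ± 3.33 of the sum. In SCC6 its share was 27.2% ± 8.80 beside 33.5% ± 14.7 for HBEGF, so these 2 lay within each other's spread. There AREG was at 62.6 and 71.7 CPM per kb in the first and second day 2 libraries and then at 50.4, 19.2 and 12.3 CPM per kb on days 3, 4 and 5, while HBEGF was at 50.3 and 28.6 CPM per kb and then at 52.5, 40.1 and 41.2 CPM per kb. AREG was thus the higher in both day 2 libraries and HBEGF on days 3, 4 and 5, by little on day 3. NRG1 made up 13.9% ± 0.70 of the treated sum in SCC25, against 9.18% ± 0.75 with PBS.

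**Figure D4:**
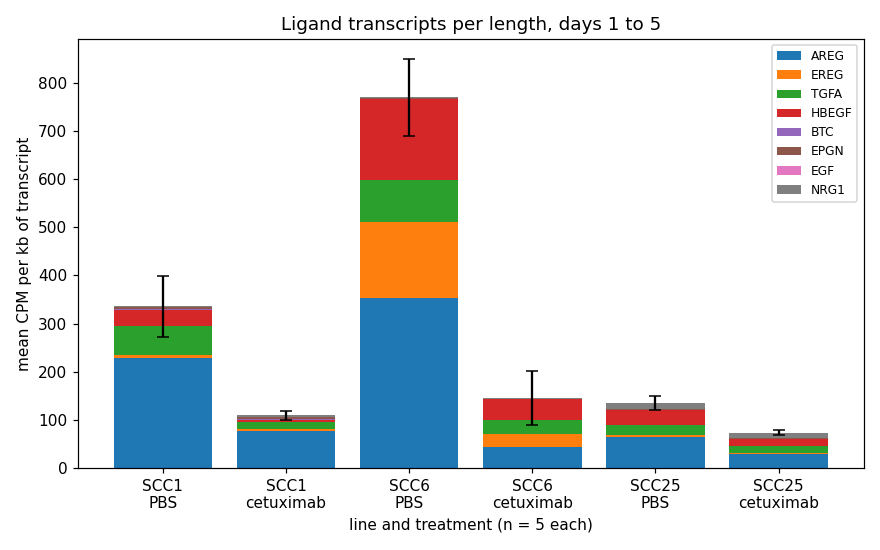
Stacked mean level of the 8 ligands per kb of canonical transcript (vertical axis from 0, CPM per kb) for each line and treatment over days 1 to 5, with the SD of the sum over n = 5 libraries as bars. The sum is 769 CPM per kb in SCC6 with PBS and 145 CPM per kb with cetuximab, and AREG, in blue at the base, is the largest segment on the mean. In cetuximab-treated SCC6 the means of AREG and HBEGF are close, at 43.3 and 42.5 CPM per kb, and HBEGF is the higher in 3 of the 5 libraries.

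The course over time was compared between days 1 to 3 and days 4 and 5. In SCC6 the AREG fold change was -2.65 on days 1 to 3 (SE 0.19) and -4.35 on days 4 and 5 (SE 0.25), and that of EREG was -1.89 (SE 0.23) and -4.00 (SE 0.31). EPGN in SCC6 was at -0.54 (SE 0.34) and then at -2.98 (SE 0.42), and HBEGF at -2.04 (SE 0.19) and -1.94 (SE 0.23). NRG1 there was at 0.73 (SE 0.18, adjusted p = 0.018) and then at -0.38 (SE 0.22, adjusted p = 0.20). EGF was at 3.57 (SE 0.64, adjusted p = 3.3e-03) and then at 1.16 (SE 0.54, adjusted p = 0.12). The difference between the periods was -1.69 for AREG, -2.10 for EREG and -2.45 for EPGN, each with an adjusted p of 0.093 by edgeR. This test called 0 genes of any kind in all 3 lines (0%), although 5626 of 19150 genes in SCC6 had an unadjusted p under 0.05, as had 1458 of 19660 in SCC1 and 599 of 20740 in SCC25. DESeq2 called 2838 genes in SCC6, 5 ligands among them, 31 in SCC1 and 3 in SCC25. The treated SCC6 libraries of days 4 and 5 are alone on their flow cell, so day and flow cell cannot be told apart there.

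In SCC1 and SCC25 none of the 8 ligands passed the edgeR test of this difference. AREG was at -1.47 and -1.65 in SCC1 and at -1.03 and -1.24 in SCC25, and HBEGF at -2.87 and -3.18 in SCC1 and at -1.10 and -0.95 in SCC25. EGF was at 1.53 and 1.70 in SCC1 (adjusted p = 4.9e-03 and 5.7e-03). In SCC25 it was at 0.45 and 0.40, called on days 1 to 3 only (adjusted p = 0.039 and 0.17). EREG in SCC1 was at -0.998 on days 1 to 3 and -1.77 on days 4 and 5, a difference of -0.78 (SE 0.23, adjusted p = 0.65) that passed the test without the filter on low counts (adjusted p = 0.028).

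Some ligands also moved with time in the PBS cultures, where days 0 to 5 were fitted as a trend. In SCC1, EREG alone passed the test, rising by 0.18 per day on the log2 scale (SE 0.03, adjusted p = 0.045), a call that was lost without day 0, 1, 3 or 4, against 2.49% of genes (1.71% upwards and 0.777% downwards). The HBEGF slope there was 0.42 (SE 0.12, adjusted p = 0.094), with 21.2 CPM on day 0 and 109 CPM on day 3. Just the day 5 library of SCC1 was on another flow cell than the rest, and without it 4 ligands were called, beside 1575 of 18796 genes. In SCC6, 4 of the 7 ligands tested had a trend (32.7% of genes, 13.9% upwards and 18.8% downwards), EREG at 0.20 (adjusted p = 3.9e-03), BTC at 0.29 (adjusted p = 0.025) and EPGN at 0.30 (adjusted p = 0.014) upwards, and HBEGF at -0.11 (adjusted p = 0.011) downwards. The SCC6 PBS libraries of days 0 and 1 were on one flow cell and those of days 2 to 5 on another, so day and flow cell ran together. With flow cell as a covariate, also added after the data were seen, these 4 trends were not called (0.12, 0.10, 0.29 and -0.12, adjusted p = 0.16, 0.65, 0.26 and 0.15), and TGFA alone was, at -0.29 (adjusted p = 0.015) in place of -0.14 (adjusted p = 0.057). That fit called 617 of 17757 genes. In SCC25, where all 6 PBS libraries shared a flow cell, 5 of 8 rose (10.7% of genes had a trend, 7.08% upwards and 3.64% downwards), AREG by 0.12 (adjusted p = 0.019), HBEGF by 0.17 (adjusted p = 9.1e-03), BTC by 0.27 (adjusted p = 0.030), EPGN by 0.35 (adjusted p = 8.6e-04) and NRG1 by 0.06 (adjusted p = 0.033). Without a single library BTC, HBEGF or EPGN could lose the call in SCC6, and AREG, HBEGF, BTC or NRG1 in SCC25. Over days 1 to 5 only, 0 ligands had a called trend in SCC1 and 1 in SCC25, beside 99 of 18671 and 1090 of 19659 genes.

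Of the receptors of these ligands, 4 of 4 rose in SCC1, 1 rose and 1 fell of the 3 tested in SCC6, and 1 of 3 rose in SCC25. Of all genes, 22.7% were called higher in SCC1, 15.6% higher and 14.6% lower in SCC6 and 8.8% higher in SCC25. EGFR was at 607 ± 25.7 CPM with PBS and 898 ± 106 CPM with cetuximab in SCC1 (log2 fold change 0.58, SE 0.07, adjusted p = 5.2e-05), and it did not pass the test in SCC6 (0.09, adjusted p = 0.46) or SCC25 (0.09, adjusted p = 0.15). ERBB3, which binds NRG1, rose in SCC1 (0.89, SE 0.07, adjusted p = 1.3e-06) and SCC25 (0.49, SE 0.06, adjusted p = 5.3e-04) and fell by 0.44 in SCC6 (SE 0.15, adjusted p = 0.042). ERBB2, the partner receptor with no ligand of its own, rose in SCC1 (0.52, SE 0.07, adjusted p = 7.5e-05) and SCC6 (0.71, SE 0.22, adjusted p = 0.026). ERBB4 averaged at most 0.498 CPM in any line and treatment, and its rise of 2.75 in SCC1 (SE 0.50, adjusted p = 6.5e-04) was from 1 to 4 counts a library with PBS to 10 to 38 counts with cetuximab.

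Among other ligands, NRG4, which binds ERBB4, rose by 1.15 in SCC1 (SE 0.21, adjusted p = 8.0e-04), 1.09 in SCC6 (SE 0.20, adjusted p = 1.7e-03) and 0.54 in SCC25 (SE 0.11, adjusted p = 6.7e-03). Of 10 proteases and cofactors that release the ligands, 2 rose and 4 fell in SCC1, 1 of the 9 tested rose in SCC6, and 1 rose and 2 fell in SCC25. Of all genes, 44.8%, 30.1% and 18.3% changed in these lines, and the counts for the release factors show little beyond those shares. ADAM17, the main sheddase of AREG, TGFA and HBEGF, had log2 fold changes of 0.18, 0.13 and 0.12 in SCC1, SCC6 and SCC25 and passed the test in none (adjusted p = 0.064, 0.37 and 0.20).

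Transcripts known to follow ERK activity fell alongside. Of 16 such genes, 12 of the 15 tested fell in SCC1 (median log2 fold change -1.89 over the list and 0.02 over all genes), 13 of 16 in SCC6 (-1.40 and 0.00) and 12 of 16 in SCC25 (-0.80 and 0.01), and none rose. Of all genes, 22.1%, 14.6% and 9.5% were called lower in SCC1, SCC6 and SCC25. DUSP6, a phosphatase of ERK, fell, with log2 fold changes of -3.19 in SCC1 (SE 0.22), -1.99 in SCC6 (SE 0.12) and -1.22 in SCC25 (SE 0.07). EGR1, an immediate early transcription factor, fell likewise, at -3.64, -4.35 and -2.44 (SE 0.31, 0.24 and 0.18). ERRFI1, an inhibitor of the EGFR kinase, fell to -0.51, -1.32 and -0.97 (SE 0.09, 0.16 and 0.12). Receptor feedback inhibitors as a list of 7 genes did not move 1 way. In SCC1 1 rose, 2 fell and 4 were not called. In SCC6 2 rose, 2 fell and 3 were not called, and in SCC25 1 fell and 6 were not called. Of all genes, 44.8%, 30.1% and 18.3% changed in these lines.

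The genes around AREG on chromosome 4 were counted as well, in a list of 14 rows of the table that includes EPGN, EREG, AREG, BTC and CXC chemokines. Of the 10 tested, 6 fell in SCC1, 10 in SCC6 and 2 in SCC25, against 22.1%, 14.6% and 9.5% of all genes. Without the 4 ligands, 4 of the 6 tested neighbours fell in SCC1 and 6 of 6 in SCC6, while in SCC25 0 of 6 were called, so that AREG and EREG were the 2 genes that fell there. CXCL8, a neutrophil chemokine, fell, at -2.73 in SCC1 (SE 0.37) and -1.26 in SCC6 (SE 0.40, adjusted p = 0.031), while its log2 fold change in SCC25 was -0.54 (SE 0.53, adjusted p = 0.52).

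Finally, the genes whose pattern was most like that of each ligand were listed, by Pearson's r of log2 CPM over the 30 libraries of days 1 to 5 with the mean of each line removed. These libraries share treatment, day and flow cell, so r describes them only. AREG was closest to CLMP (r = 0.98), POLR3G and GRPEL1, and EREG to RSL1D1 (r = 0.98), GART and AREG itself. TGFA was closest to STEAP1 (r = 0.98), IL1A and ELK3, and HBEGF to PLK3 (r = 0.97), AEN and EIF2B2. EGF was closest to OTUD1 (r = 0.96), BTC to NUPL2 (r = 0.86), EPGN to CYB5A (r = 0.88) and NRG1 to RUNX2 (r = 0.88). Among AREG, EREG, TGFA and HBEGF, r ranged from 0.78 (EREG and HBEGF) to 0.97 (AREG and EREG). It was 0.91 between AREG and TGFA and 0.90 between TGFA and HBEGF. With EGF, r was -0.83 for TGFA, -0.80 for AREG, -0.72 for HBEGF and -0.69 for EREG.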

How the data were processed

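Bulk RNA-seq of 33 libraries was analysed. The authors inferred transcript abundance with Salmon (version 0.8.2 in the submitters' processing notes, which also name hg19 and GRCh37) and imported it with tximport. The annotation release is not given in the sources used here. The deposited values are estimated counts per gene symbol, not normalised between libraries, and were rounded to whole numbers here.

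Genes were filtered with filterByExpr, scaled by TMM and tested in R 4.3.3 with edgeR 4.0.16 (quasi-likelihood F test, Benjamini-Hochberg adjustment over all genes tested, adjusted p under 0.05 called). The study's own tool was DESeq2. Where edgeR gives no standard error, it was taken as the size of the log2 fold change over the square root of F. CPM use the TMM factors of all libraries. DESeq2 1.42.0, its size factors, total counts only, no filter, each library left out, day as a block, flow cell as a covariate, day 0 added to PBS and trends over days 1 to 5 were alternatives. Flow cell in the SCC6 trend and in SCC6 against SCC1 with PBS was added after the data were seen. The fits were tested on simulated counts. DESeq2 made well more false calls than its nominal rate in 6 of the 7 comparisons tried, while edgeR stayed near its own in all 14. These counts were independent draws with the spread estimated by edgeR and no effect of flow cell. They may therefore favour edgeR and differ from these libraries.

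The labels pair the treatments by day. The deviations of same-day libraries from their group means correlated at 0.12 to 0.40 in SCC1 and 0.23 to 0.59 in SCC25, and in SCC6 at 0.59 on day 3, -0.19 on day 4, 0.00 on day 5 and 0.54 and 0.57 for the libraries labelled day 2.

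All 8 ligands are described in every comparison. Receptors, release factors, ERK outputs, receptor feedback inhibitors and chromosome 4 neighbours (with and without the ligands) came from set lists. The 3 most similar genes were taken from those whose mean log2 CPM reached 3. The members and lists were chosen with earlier results of these data known. Gene positions came from GENCODE on GRCh37 and promoters from RefSeq on GRCh38.p14. Depth limits EGF most.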

Additional observations from a re-analysis of the deposited data

Results flagged for a closer look

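In 5 of the 48 groups of 5 libraries, a single library lay far from the other 4, and chance gives about 1 in 20 groups. HBEGF in SCC6 with PBS was lowest on day 5, at 330 CPM. BTC in SCC1 with PBS was highest on day 5, at 8.03 CPM, and BTC in SCC6 with PBS was lowest on day 1, at 2.84 CPM. EPGN in SCC1 with cetuximab was lowest on day 1, at 4.51 CPM. EGF in SCC6 with PBS was highest on day 5, at 0.578 CPM from 16 counts.

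The change with cetuximab differed between lines for all 8 ligands by edgeR's F test of the treatment-by-line term, which called 26.1% of all genes. The distance between the largest and the smallest log2 fold change of the 3 lines was 1.93 for AREG, 1.19 for EREG, 1.46 for TGFA and 1.96 for HBEGF. It was 1.79 for BTC, 1.67 for EPGN, 1.63 for EGF and 1.16 for NRG1. With the flow cell as a covariate the test was passed by AREG, TGFA, HBEGF and BTC and not by the other ligands. Of all genes, 2979 of 24399 passed it.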

How the results depend on the processing

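AREG, EREG, TGFA and HBEGF were called lower with cetuximab in each line and over the 3 lines under every alternative run. With DESeq2, which made more false calls in counts simulated from edgeR's own estimates, the ligands called were 4 for the PBS trend in SCC1 (1 by edgeR) and 5 for the difference between periods in SCC6 (0). Of all genes, DESeq2 called 1485 of 19045 and 2838 of 19150. Without the filter on low counts the ligands called were 4 for the SCC1 trend, 1 for the SCC1 periods and 6 for the SCC6 periods. Of all genes, 634 of 36224, 202 of 38139 and 3366 of 38333 were. Total counts without TMM factors gave 0 for the SCC1 trend, and days 1 to 5 only gave 0 for the SCC1 trend and 1 for that of SCC25 (5 with day 0). With total counts 482 of 19045 genes were called, and over days 1 to 5 only, 99 of 18671 and 1090 of 19659. With the flow cell as a covariate, ligands whose change differed between lines numbered 4 in place of 8, and those with a trend in SCC6 numbered 1 in place of 4, the last being an alternative added after the data were seen. Of all genes, 2979 of 24399 and 617 of 17757 were called. The causes were not tested.

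Leaving out each library in turn, the ligands called ranged from 0 to 4 for the SCC1 trend, from 2 to 5 for the SCC6 trend (2 without PBS day 5), from 1 to 5 for the SCC25 trend (1 without day 0, 3 without PBS day 1 or day 4) and from 0 to 4 for the SCC6 periods (4 without PBS day 1 and 3 without PBS day 3). Of all genes, 3144 of 17579 had a trend in SCC6 without PBS day 5. In SCC25 these were 1090 of 19659 without day 0, 1337 of 19763 without day 1 and 1889 of 19812 without day 4. For the SCC6 periods 1424 of 19281 genes were called without PBS day 1 and 973 of 19288 without PBS day 3. The SCC1 trend fell to 0 without day 0, 1, 3 or 4 and came to 4 without day 5, where 1575 of 18796 genes were called.

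Directions turned only for values that were not called. With the flow cell covariate, BTC in SCC1 was at -0.26 and EPGN in SCC25 at -0.46, and the AREG slope in SCC6 was -0.15. With day 0 added to PBS, EPGN in SCC1 was at 0.029 and BTC over the 3 lines at 0.030. Over days 1 to 5 only, the EPGN slope in SCC1 was -0.0013 and the AREG slope in SCC6 -0.061, and without the filter the slopes were -0.0041 for AREG in SCC6 and -0.000324 for TGFA in SCC25, which total counts put at -0.0089. When libraries were left out, the log2 value ranged from -0.15 to 0.089 for EPGN with cetuximab in SCC1 and from -1.01 to 0.21 for EGF in SCC6 against SCC1 with PBS. Slopes ranged from -0.0013 to 0.14 for EPGN and -0.17 to 0.024 for NRG1 in SCC1, from -0.061 to 0.063 for AREG and -0.048 to 0.20 for NRG1 in SCC6, and from -0.0040 to 0.014 for TGFA in SCC25. The difference between periods ranged in SCC1 from -0.74 to 0.010 for HBEGF, -0.18 to 0.62 for EGF and -0.47 to 0.16 for NRG1, in SCC6 from -0.13 to 0.22 for HBEGF, and in SCC25 from -0.0056 to 0.32 for HBEGF, -0.71 to 0.0059 for EPGN, -0.12 to 0.040 for EGF, -0.40 to 0.058 for BTC and -0.39 to 0.010 for EREG.

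With the day as a replicate block, the ligands called were 6 in SCC1, 6 in SCC6 with either day 2 library taken as day 1, 7 in SCC25, 5 over the 3 lines, 8 or 7 for the difference between lines and 0 for the periods. Of all genes, 8693 of 19660 were called in SCC1, 5004 or 4691 of 19150 in SCC6 and 5028 of 20740 in SCC25. Over the 3 lines 8228 or 8132 of 23145 were, and 5774 or 5587 of 23145 differed between lines. EPGN in SCC6, BTC in SCC25 and EPGN for the difference between lines changed their call, and no other ligand did. Of all single-ligand values recomputed, 1962 kept direction and side of the threshold, 60 lost the call, 53 gained it and 36 turned. Depth limits EGF, at 1 to 16 counts in the SCC6 PBS libraries.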
